A study of Saccharomyces cerevisiae with 4 samples.

Results

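The genes of the large cytosolic ribosomal subunit of budding yeast, Saccharomyces cerevisiae, were followed across growth, nitrogen starvation and loss of PHO23. They were taken by name, as every RPL gene with a number and an optional A or B, together with RPP0, RPP1A, RPP1B, RPP2A and RPP2B. The rule found 81 genes among the 6678 open reading frames (ORFs) of the table, and it used no measured value. They encode 46 kinds of protein by name, 11 from a single gene and 35 from a pair of genes ending in A and B.

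The study compared transcripts of wild-type and pho23 deletion cells in rich medium and after removal of nitrogen. All cells were of the haploid strain SEY6210, which is MATα and GAL. It carries the alleles leu2-3,112 and ura3-52, the deletions his3-∆200 and trp1-∆901, and in addition suc2-∆9 with lys2-801. The mutant, JMY047, also has pho23∆::HIS5. Growing cells were taken in mid-log phase in YPD, and starved cells after a further 2 h in SD-N, a medium without nitrogen. Each of the 4 groups held 1 library of total RNA, so no difference below has a replicate check, a standard deviation or a test. The other differences between YPD and SD-N cannot be told apart from the loss of nitrogen. PHO23 itself, whose product belongs to the Rpd3L histone deacetylase, had RPKM values of 12.3 (growing) and 23.4 (starved) with the gene intact. Both mutant libraries were near 0, at 0.13 and 0.0546, as their labels say. The genotypes also differed in genes that mark mating type alpha. All 5 of those examined (MATALPHA1, MF(ALPHA)1, MF(ALPHA)2, SAG1 and STE3) were lower in the mutant, with log2 folds of -4.95 to -1.42 in growing and -4.78 to -1.89 in starved cells. MF(ALPHA)2, for the alpha pheromone, had RPKM values of 1745 and 4831 in wild type (growing, starved) against 55.6 and 175 in the mutant. Other genes went lower still. Over all eligible ORFs the lowest genotype log2 folds were -6.05 (AGA1, growing) and -7.10 (FIG1, starved). Each genotype is 1 strain, so loss of PHO23 and any other difference between the strains cannot be told apart, and the part of the mating-type genes in the values below was not tested.

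Yeast makes its ribosomes at a rate set by nutrients, and the ribosomal protein genes are among the most strongly transcribed genes of growing cells. Their promoters are bound by Rap1, Fhl1 and Ifh1, with Sfp1, and the TORC1 and protein kinase A pathways keep them active while nitrogen and sugar are present. When nitrogen is lost these pathways are turned down and the transcripts of both subunits decline together. Rpd3L is known from other work to be recruited to ribosomal protein and ribosome biogenesis genes under such stress, through repressors such as Stb3, Dot6 and Tod6.

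Values are RPKM, a read count divided by the length of the ORF and by the size of the library, as deposited by the authors. Where 4 values are given for a gene, they are its RPKM in growing wild type, growing mutant, starved wild type and starved mutant, always in that order. Reads in these libraries were estimated from the spacing of the lowest values at about 22800000, 27500000, 19700000 and 21800000. This estimate is rough, since only 35.6% to 52.2% of the low values fell within 0.1 of a whole read, against 20.9% to 23.9% with a step 3% off. RPKM times coding length, summed over ORFs, came to 83.4% to 83.8% of all reads in the 4 libraries, whereas RPKM times the whole gene span, introns included, came to 86.4% to 95.9%. The steadier sum is that of a division by coding length, and levels of genes with and without introns are compared below on that basis. The smallest member count, that of RPL29 in starved wild type, came to about 713 reads, a counting error of 3.7%. Intervals below are 95% exact binomial intervals on these estimated reads and cover counting error only. A log2 fold is the log2 ratio of (RPKM + 1), and a gene is called at 2-fold or more when it reached an RPKM of 10 in at least 1 of the libraries compared. All 81 genes passed that minimum in every library.

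Many A and B copies are so alike that reads cannot be assigned with certainty, which bears on every statement about a single copy. The coding sequences of the 35 pairs were 68.9% to 99.4% identical, with a median of 93.2%. The lowest value belonged to RPP1A and RPP1B, which encode distinct stalk proteins. RPL41A (chrIV:130407-130484, minus strand) and RPL41B (chrIV:221724-221801, minus strand) form a pair without introns that encodes the smallest protein of the subunit and differs at a single base among 78, shown in capitals. RPL43A (chrXVI:654166-654847, plus strand) and RPL43B (chrX:608305-608858, plus strand), each with an intron, differ at 29 of 279 bases, spread so that no stretch of 50 bases is shared. These sequences are the spliced coding strands of the R64 genome, and they stand for pairs that reads can hardly or readily separate.
RPL41A: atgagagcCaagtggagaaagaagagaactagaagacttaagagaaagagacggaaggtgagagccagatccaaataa
RPL41B: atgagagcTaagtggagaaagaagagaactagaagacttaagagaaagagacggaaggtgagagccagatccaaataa
RPL43A: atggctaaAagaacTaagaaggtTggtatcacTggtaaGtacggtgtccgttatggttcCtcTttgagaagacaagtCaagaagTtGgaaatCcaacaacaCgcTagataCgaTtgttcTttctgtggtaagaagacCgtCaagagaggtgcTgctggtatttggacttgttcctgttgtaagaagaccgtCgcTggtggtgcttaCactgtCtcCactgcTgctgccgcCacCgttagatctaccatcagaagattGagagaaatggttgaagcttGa
RPL43B: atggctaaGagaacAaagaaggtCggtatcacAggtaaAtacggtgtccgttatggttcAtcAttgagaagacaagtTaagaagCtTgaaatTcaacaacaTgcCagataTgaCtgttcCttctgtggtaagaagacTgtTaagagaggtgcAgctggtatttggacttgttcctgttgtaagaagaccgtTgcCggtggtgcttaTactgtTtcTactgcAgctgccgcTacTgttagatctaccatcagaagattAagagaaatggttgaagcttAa

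Taking 50 bases as a stand-in for the read length, which is not given in the sources used here, 81.4% of such stretches in RPL35A also occurred elsewhere in the genome. The share was 81% for RPL1A, 72.7% for RPL4A, 69.0% for RPL41A, 62.3% for RPL7A, 60.9% for RPL11A, 48.6% for RPL14A and 48.5% for RPL42A, and the same for each B copy. Values of these single copies are therefore uncertain. It was 28.5% for RPL2A and RPL2B, and at most 16.4% for the members not named here.

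In growing wild type the large-subunit genes were highly expressed and spanned a 17.2-fold range. Their RPKM summed to 243327, or 22.1% of the summed RPKM of all ORFs, and RPKM times coding length gave 11.1% of the reads. The median gene stood at 2845. RPL25, whose protein sits at the mouth of the peptide exit tunnel, was highest at 7866. RPL30, whose protein is known to block splicing of its own transcript, stood at 7232 and RPL38 at 7184. RPL22B was lowest at 457, followed by RPL12B at 629 and RPL12A at 840, both of which encode the protein at the base of the stalk. The genes are thus unequal in level. RPL30 and RPL38 lay close together, and without replicates their order is not established.

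**Figure D1:**
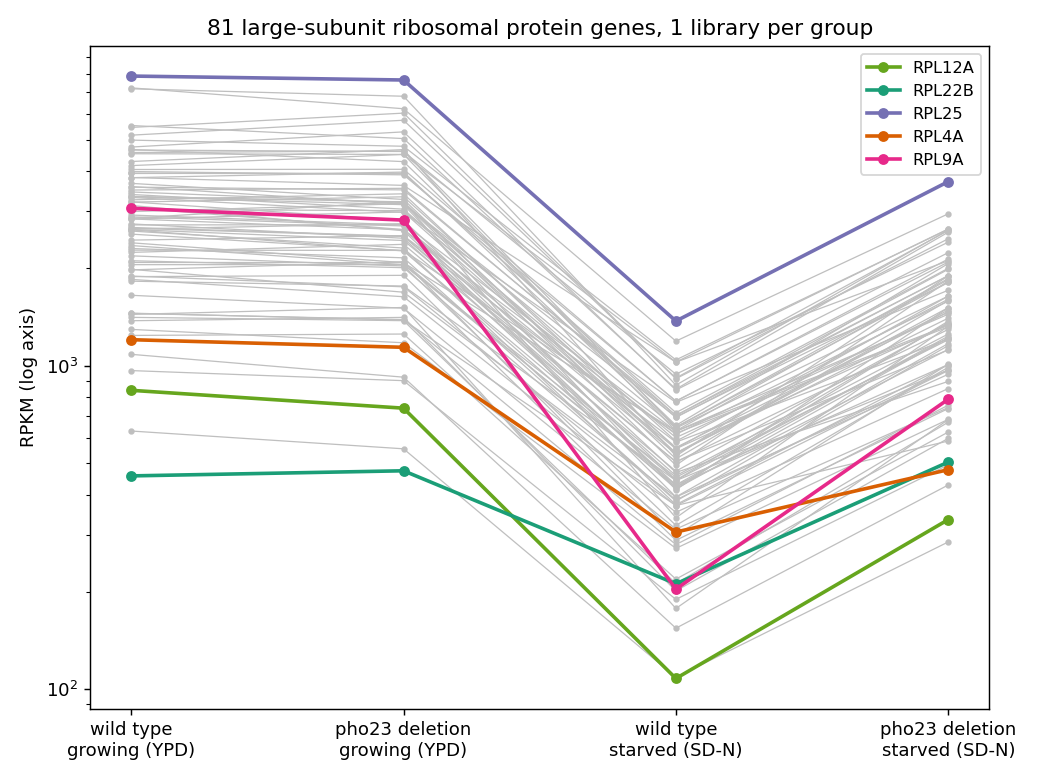
RPKM on a log axis of each of the 81 genes in the 4 libraries, 1 line per gene and 1 library per group, with 5 genes in colour. Every gene was lowest in starved wild type, and RPL22B alone was higher in starved mutant (504) than growing wild-type cells (457).

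Without nitrogen every large-subunit transcript was lower in wild type. All 81 genes were called lower at 2-fold, where 13.3% of the 5956 eligible ORFs were, and 32.7% were called higher. With libraries scaled to equal sums 80 were called lower, beside 601 of 6016 eligible ORFs, RPL22B then lying at -0.788. The median log2 fold was -2.49, with quartiles of -2.72 and -2.34, against 0.53 over all eligible ORFs. A typical gene kept 17.8% of its growing RPKM, and the range ran from 6.65% for RPL9A to 46.4% for RPL22B. The members' share of reads was 11.1% in growing and 1.99% in starved wild type. RNA of a whole culture gives relative levels, so less transcript in each cell and fewer cells carrying it cannot be told apart.

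The same shift of medium left the mutant with far more of these transcripts. The median log2 fold was -1.01, with quartiles of -1.12 and -0.89, and a typical gene kept 49.8% of its growing level. Of the 81 genes, 44 were called lower at 2-fold, beside 8.77% of 5863 eligible ORFs called lower and 22.4% called higher. That count rests on where the threshold falls. It was 16 when the libraries were scaled to equal sums, where 365 of 5871 eligible ORFs were called lower. With median-of-ratios scaling it was 79, where 926 of 5826 eligible ORFs were called lower. Just inside stood RPL21A, RPL32 and RPL2A, at the threshold to 2 decimals, and just outside RPL42B at -0.99, RPL27B at -0.98 and RPL42A at -0.97. The members' share of reads was 10.7% in growing and 5.30% in starved mutant cells.

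**Figure D2:**
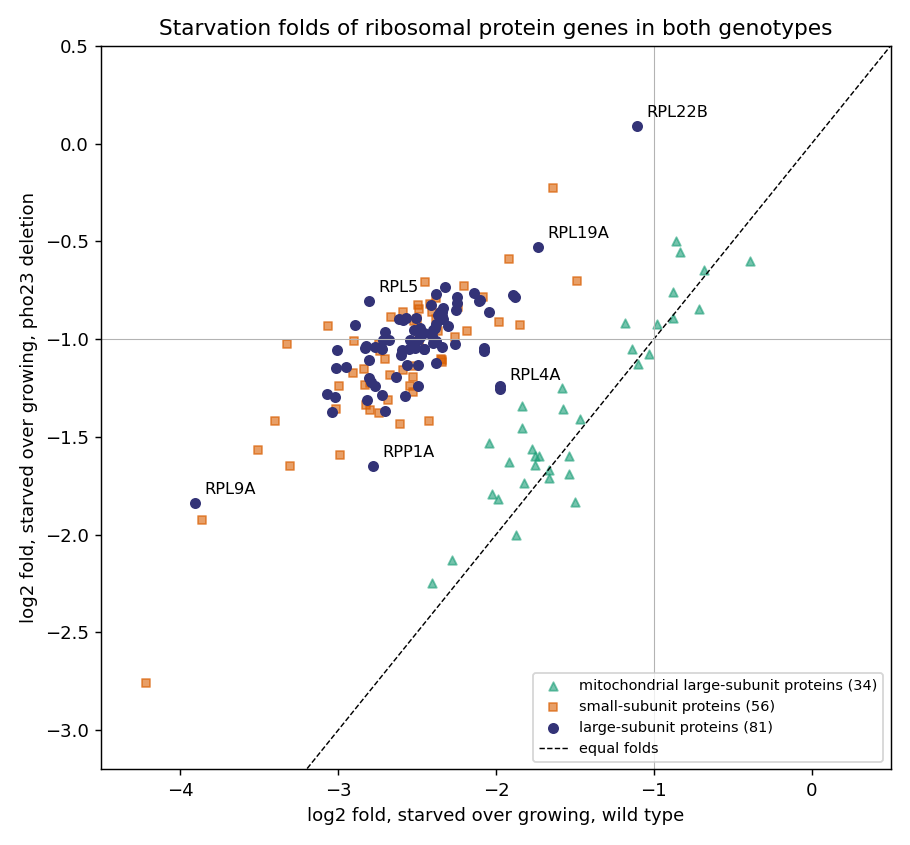
Log2 fold of starved over growing cells in wild type (horizontal) and in the pho23 deletion (vertical) for large-subunit, small-subunit and mitochondrial large-subunit protein genes, 1 point per gene. All 81 large-subunit genes lie above the dashed line of equal folds, with RPL9A at the lower left and RPL22B at the upper right.

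The difference of the starvation folds, deletion minus wild type, was above 0 for all 81 genes. Its median was 1.49 and its range 0.72 (RPL4A) to 2.07 (RPL9A), against a median of -0.15 over 6034 ORFs that reached an RPKM of 10 in any library. With 1 library per group this interaction could not be tested. The order of levels across libraries was nearly uniform, since 80 genes stood higher in growing wild type than in the starved mutant, and lowest in starved wild type. The exception was RPL22B.

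Between genotypes, growing cells differed little and starved cells broadly. None of the 81 genes reached 2-fold in growing cells, where 3.95% of 5439 eligible ORFs were called higher and 2.08% lower in the deletion. The median was -0.07 and the range -0.26 (RPL14A) to 0.17 (RPL43B), with 55 genes below and 26 above 0. The split depended on scaling, with 75 below and 6 above 0 after median-of-ratios scaling. In starved cells 78 of the 81 were called higher in the deletion, beside 5.30% of 5976 eligible ORFs, and none was lower, beside 4.13%. Their median log2 fold was 1.43 with quartiles of 1.33 and 1.55, against -0.04 over all eligible ORFs, and the median ratio of RPKM was 2.70. The comparisons of starved genotypes and of starvation in wild type share the starved wild-type library, so they are not independent.

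**Figure D3:**
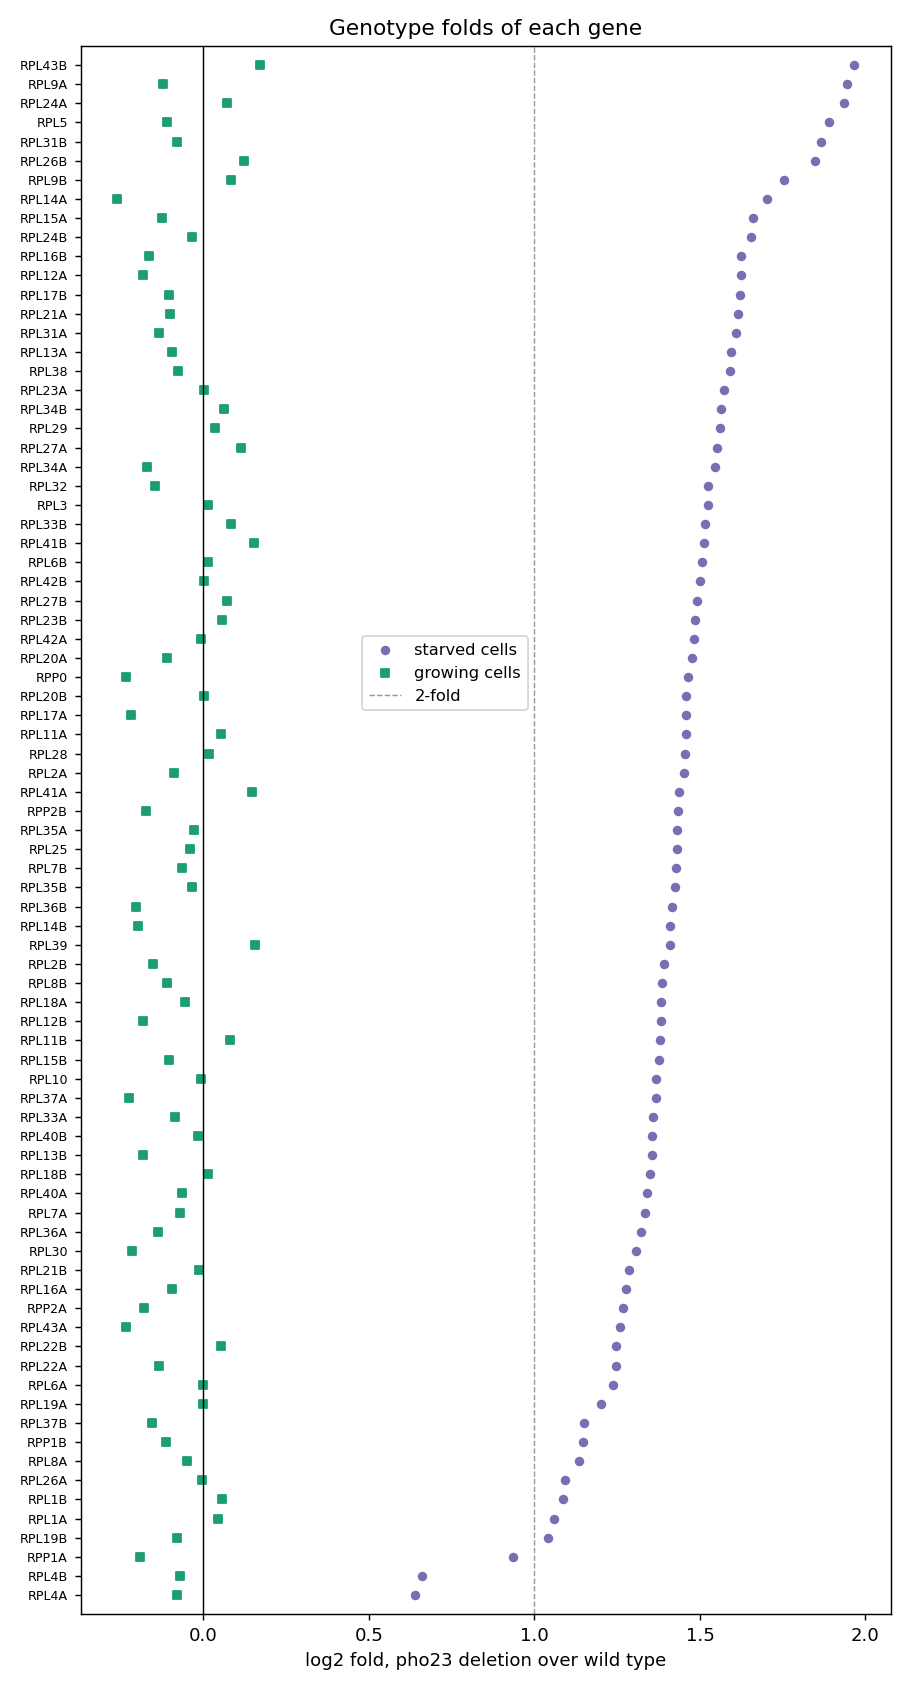
Log2 fold of the pho23 deletion over wild type for each of the 81 genes, in growing cells (squares) and starved cells (circles), ordered by the latter. The growing values run from -0.26 to 0.17 around 0 and the starved values from 0.64 to 1.96, so the point clouds do not overlap.

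The genes with the highest starved genotype folds came from several parts of the subunit. RPL43B stood at 2859, 3222, 339 and 1326. Its starved ratio was 3.91 (3.72 to 4.12) and its log2 fold 1.96. RPL9A stood at 3069, 2821, 204 and 788, a starved ratio of 3.86 (3.69 to 4.04). It was the gene with the lowest starvation fold in both genotypes, at -3.90 and -1.84. RPL24A, whose protein bridges to the small subunit, stood at 1442, 1515, 178 and 682, a log2 fold of 1.93. RPL5, whose protein escorts the smallest ribosomal RNA into the subunit, was at 3447, 3196, 493 and 1831, a log2 fold of 1.89. RPL31B was at 1.87 and RPL26B at 1.85, both encoding proteins at the rim of the exit tunnel. In each of these genes the growing libraries were close to each other and the starved mutant lay between them and starved wild type.

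At the other end were RPL4A, RPL4B and RPP1A, the 3 genes under 2-fold in starved cells. RPL4A, on chromosome II, encodes a protein whose loop reaches into the exit tunnel, and it stood at 1204, 1141, 306 and 477. Its starved ratio was 1.56 (1.51 to 1.61) and its log2 fold 0.64. RPL4B stood at 1455, 1385, 370 and 585.5, a log2 fold of 0.66. The copies share 72.7% of their 50-base stretches, so their near-equal values may not be separate measurements. RPP1A, which encodes a stalk protein, stood at 3212, 2811, 468 and 895, a log2 fold of 0.93, and 1.04 with median-of-ratios scaling. Just above the threshold followed RPL19B at 1.04, RPL1A at 1.06, RPL1B at 1.09 and RPL26A at 1.09. With libraries scaled to equal sums, all 4 lay under 2-fold, at 0.90, 0.91, 0.94 and 0.95, and so did RPL8A, which went from 1.13 to 0.99.

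The smallest response to starvation in both genotypes was that of RPL22B. It stood at 457, 474, 212 and 504. Its starvation log2 fold was -1.10 with PHO23 and 0.09 without it, the latter being the only value above 0 among the 81, and -0.25 with median-of-ratios scaling. Its partner RPL22A stood at 1652, 1507, 313 and 743. The Rpl22 protein is known to hold back splicing of the RPL22B transcript in yeast. Although their starvation folds differed, the starved genotype folds of the partners were alike, at 1.25 for RPL22A and 1.25 for RPL22B.

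Genes of the stalk, the flexible arm that draws translation factors with GTPase activity to the ribosome, were all lower after starvation. RPP0, the single-copy anchor of the stalk, stood at 1085, 922, 154 and 428. RPP1B stood at 2638, 2440, 505 and 1120, and RPP2A at 1850, 1635, 352 and 850. RPP2B stood at 2610, 2313, 372 and 1008. All 7 genes of the stalk and its base, RPL12A and RPL12B included, lay below 0 in the growing genotype comparison, with a range of -0.23 to -0.11. So did 55 of the 81 members and 2270 of 5439 eligible ORFs. In starved cells 6 of the 7 stalk genes were called higher in the mutant, with a median of 1.38, beside 5.30% of all eligible ORFs called higher. Among the 5 RPP genes RPP0 had the highest starved genotype fold, at 1.46, and RPP1A the lowest.

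Medians of the other functional regions ran from 1.07 to 1.58 between starved genotypes. The particle of the smallest ribosomal RNA, with RPL5, RPL11A and RPL11B, had a median of 1.46 and a range of 1.38 to 1.89. The 4 genes for proteins near the catalytic centre (RPL2A, RPL2B, RPL3 and RPL10) had a median of -2.57 for starvation in wild type, -1.03 in the deletion and 1.42 for genotype in starved cells. RPL3 stood at 4564, 4613, 646 and 1861, and RPL10, whose protein joins late and permits the subunits to meet, at 4525, 4502, 1027 and 2650. Their growing levels were close, while RPL10 was the higher in both starved libraries. The 14 genes of the exit tunnel wall and rim had a starved genotype median of 1.43 and the widest range of any such group, 0.64 to 1.87. RPL1A and RPL1B, which encode the protein of the mobile L1 arm, were at 1.06 and 1.09, below the lower quartile of all members. The 4 genes grouped as bridges had a median of 1.58. RPL24A (1.93) and RPL24B (1.65) lay above the upper quartile of all members, and RPL41A (1.44) and RPL41B (1.51) below it. Each gene was put in a single group, RPL19A (1.20) and RPL19B (1.04) with the tunnel, so the bridge list is not complete. RPL40A and RPL40B, which encode the protein fused to ubiquitin, were at 1.34 and 1.36. RPL28, RPL42A and RPL42B, known for mutations that give resistance to cycloheximide, lay close together, RPL28 at 1.46 and RPL42A at 1.48. The remaining 42 genes had a median of 1.44, and all of them were at least 2-fold higher, beside 5.30% of all eligible ORFs.

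Medians were close between genes with and without introns, while counts at the threshold were less so. Of the 81 genes, 53 have an intron in the coding region and 28 have none. The starved genotype median was 1.43 with and 1.45 without an intron, and the wild-type starvation medians were -2.46 and -2.63. All 53 genes with an intron and 25 of the 28 without were called higher between starved genotypes, beside 5.30% of all eligible ORFs. In the mutant, 24 of the 53 and 20 of the 28 were called lower after starvation, beside 8.77% of all eligible ORFs. So were 36 of 70 duplicated and 8 of 11 single-copy genes. These mutant counts rest on where the threshold falls, since the medians lay close to it. The mutant starvation median was -0.969 with and -1.06 without an intron. It was -1.08 for single-copy genes and almost at the threshold for duplicated ones. None of these differences in median or count was tested. For the 11 single-copy genes (RPL3, RPL5, RPL10, RPL25, RPL28, RPL29, RPL30, RPL32, RPL38, RPL39 and RPP0), which have no partner to share reads with, the starved genotype median was 1.46 and the range 1.31 to 1.89. All 11 were at least 2-fold higher, beside 5.30% of all eligible ORFs. Adding both copies gave 45 of 46 proteins at 2-fold, beside the same share. Leaving out the 16 genes that share over 40% of their stretches gave 64 of 65. Across the 81 genes, which are not independent replicates, the starved genotype fold had a Spearman rho of 0.2 with the growing wild-type RPKM and -0.07 with coding length. The levels themselves kept their order, with a rho of 0.98 between growing libraries and 0.94 between starved libraries. These rhos share library and depth and describe the 81 genes only.

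Within the pairs, most copies kept their order. In 22 of the 35 pairs the same copy was higher in all 4 libraries, and in 13 it was not. Among these 13, RPL41 and RPL42 had copies of nearly equal level, with mean absolute log2 differences of 0.06 and 0.01. RPL15A exceeded RPL15B by 2.27, 2.25, 1.78 and 2.07 on the log2 scale in the same order of libraries, the widest gap of any pair. RPL9A exceeded RPL9B by 0.63 and 0.43 in the growing libraries and the ratio turned to -0.55 and -0.36 in the starved ones. RPL26A against RPL26B gave -0.91 and -1.03 in growing cells, 0.23 in starved wild type and -0.52 in starved mutant cells. RPL43A against RPL43B gave -0.52, -0.93, 0.21 and -0.49. For both of these pairs starved wild type was the library where the order turned, and the starved genotype folds of the copies were 0.76 and 0.71 apart, more than in any other pair. RPL22A against RPL22B gave 1.85 and 1.67 in growing cells and 0.56 in each starved library. At the other extreme, RPL42A and RPL42B never differed by more than 0.03, but 48.5% of their stretches are shared. In 25 of the 35 pairs the copies' starved genotype folds were within 0.25 of each other.

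**Figure D4:**
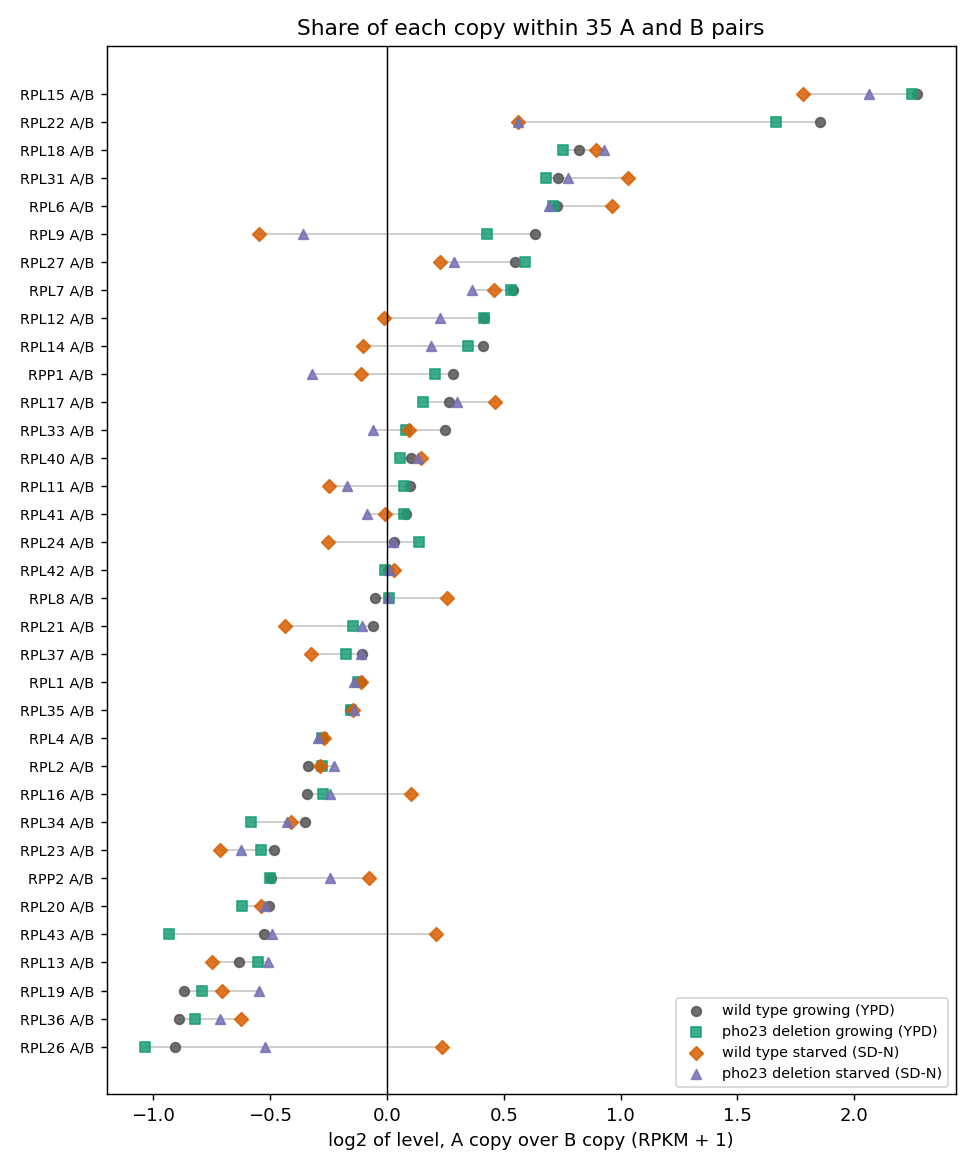
Log2 ratio of the A copy over the B copy for 35 pairs in the 4 libraries, with a grey line spanning each pair's lowest and highest value. RPL9, RPL22, RPL26 and RPL43 have the longest spans, and RPL1, RPL4, RPL35 and RPL42, whose copies are nearly identical, have short ones.

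Upstream sequence was searched in the R64 genome for short motifs of factors known at these genes, on both strands of the 500 bases before each start codon. The letters CCCATACA, a core of the Rap1 motif, occurred upstream of 16 of the 81 genes (19.8%) and of 1.91% of 5960 ORFs. The letters GACGCA, for Fhl1, occurred at 15 members (18.5%) against 11%. A pattern of 13 bases, fixed at its ends and free between them, was searched for Abf1 and occurred at 9 (11.1%) against 12.1%. Its spacing was not matched to known Abf1 sites, so these counts do not tell whether such sites are more frequent at members. AACCCTAA, for Tbf1, occurred at 1 member (1.23%, against 1.46%), GATGAG, the PAC motif, at 18 (22.2%, against 28.2%), and GAAAATTTT, the RRPE motif, at 8 (9.88%, against 6.54%). In the shorter window from 250 before to 50 after the start codon the Rap1 letters were found at 2 members (2.47%) and 0.872% of ORFs. Matches of different motifs overlapped in 3 places. Members with and without the Rap1 letters had starved genotype medians of 1.45 and 1.43. These are strict letter matches and describe the window only.

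Upstream stretches are shown for genes at both ends of the range of starved genotype folds, written 5′ to 3′ on the strand of the gene. Capitals mark matches to the letters searched above, and sites of another spelling or spacing stay in lower case. RPL43B (chrX:607985-608104, plus strand, log2 fold 1.96), RPL26A (chrXII:818992-819111, plus strand, 1.09) and RPL13A (chrIV:308124-308223, plus strand, 1.59) hold the Rap1 letters, RPL13A on both strands. RPL4A (chrII:299946-300065, plus strand, 0.64) and RPL4B (chrIV:471633-471752, plus strand, 0.66) hold the Fhl1 letters. The Rap1 letters are thus shown for a pair of genes above the upper quartile of the folds and for 1 below the lower quartile.
RPL43B: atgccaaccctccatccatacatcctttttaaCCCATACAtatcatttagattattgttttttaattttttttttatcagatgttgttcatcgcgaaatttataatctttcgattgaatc
RPL26A: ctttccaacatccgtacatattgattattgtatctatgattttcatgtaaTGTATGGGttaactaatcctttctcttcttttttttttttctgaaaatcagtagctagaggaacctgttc
RPL13A: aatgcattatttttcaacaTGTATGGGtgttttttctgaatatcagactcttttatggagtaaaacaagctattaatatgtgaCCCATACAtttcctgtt
RPL4A: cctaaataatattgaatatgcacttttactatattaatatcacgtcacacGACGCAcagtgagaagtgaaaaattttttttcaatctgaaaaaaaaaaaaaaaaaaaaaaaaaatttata
RPL4B: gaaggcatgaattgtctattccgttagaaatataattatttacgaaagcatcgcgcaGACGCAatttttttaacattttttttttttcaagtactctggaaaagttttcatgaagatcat

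The genes of the small subunit gave nearly the same figures as those of the large subunit. For 56 small-subunit genes the medians were -2.54 for starvation in wild type, -1.08 in the deletion and -0.05 for genotype in growing cells. In starved cells the genotype median was 1.48, and 54 were at least 2-fold higher, beside 5.30% of all eligible ORFs. No difference between the subunits was tested. The 34 mitochondrial large-subunit genes, which serve a separate ribosome, were also lower after starvation, with medians of -1.58 (wild type) and -1.49 (mutant). Their starved genotype median was -0.03, and none of the 33 that passed the minimum there reached 2-fold.

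Genes that help build the large subunit had starved genotype medians between those of the cytosolic and the mitochondrial genes. Of 7 dedicated chaperones of large-subunit proteins, 6 were at least 2-fold lower after starvation in wild type and 3 in the deletion. The shares over all eligible ORFs were 13.3% and 8.77%. All 7 were above 0 between starved genotypes (median 0.65). SYO1, whose protein carries Rpl5 and Rpl11, stood at 110, 125, 25.9 and 64.7, a starved genotype log2 fold of 1.29. RRB1, for the chaperone of Rpl3, was at 1.06. ACL4, for the chaperone of Rpl4, was at 0.34, and BCP1, for that of Rpl23, at 0.28. Of 22 late assembly and export factors, 17 were called lower after starvation with PHO23 and 8 without it, beside 13.3% and 8.77% of all eligible ORFs. REH1, which acts late in assembly, was called higher in both, at 1.99 and 1.59, and MTR2 and JJJ1 lay above 0 in both. Between starved genotypes 4 factors were called higher (median 0.61), beside 5.30% of all eligible ORFs. ARX1, an export factor, stood highest at 1.37, then YVH1, which helps release Mrt4 from the stalk site, at 1.29, NUG1 at 1.26 and MRT4 itself at 1.08. TIF6, which keeps the subunits apart until late, lay at -0.39.

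Transcripts of the known regulators of these genes showed no common direction. Over 14 regulators the starved genotype median was -0.12, with 6 above and 8 below 0. TOD6 alone reached 2-fold, where 5.30% of all eligible ORFs were called higher. TOD6, which encodes a repressor of ribosome genes that binds the PAC motif, stood at 85.7, 80.6, 35.2 and 92.8. Only starved wild type was low. FHL1 stood at 15.1, 13.4, 10.7 and 9.39, IFH1 at 24.5, 24.2, 30.8 and 33.6, and RAP1 at 29.2, 32.6, 33.4 and 34.3, with starved genotype log2 folds of -0.18, 0.12 and 0.04. SFP1 was at -0.11, STB3 at -0.13 and DOT6 at 0.19, while ABF1 had the lowest value at -0.73. Transcript levels give no account of the regulators' activity or place in the cell.

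**Figure D5:**
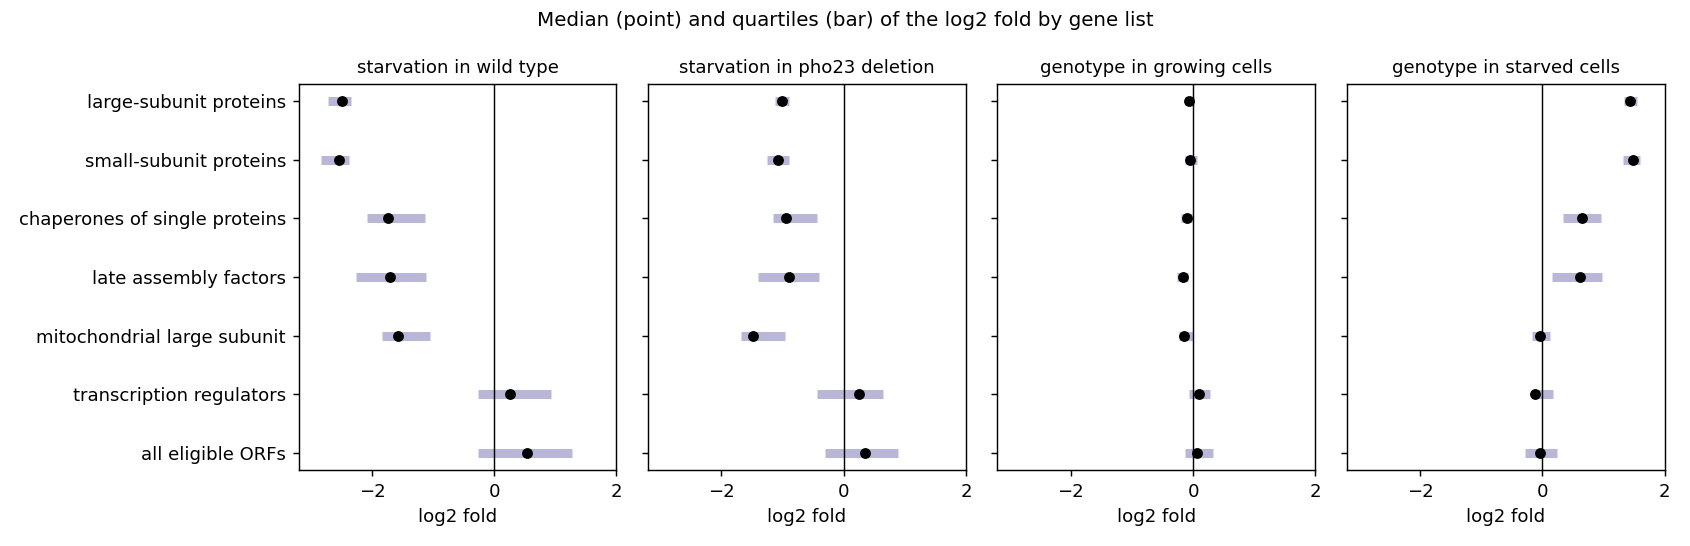
Median (point) and quartiles (bar) of the log2 fold in the 4 comparisons for the large-subunit genes, 5 related gene lists and all eligible ORFs. The large- and small-subunit medians in starved cells, 1.43 and 1.48, lie to the right of those of the chaperones (0.65), late assembly factors (0.61) and mitochondrial genes (-0.03).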

How the data were processed

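Total RNA of 4 libraries was sequenced by the authors. Per the submitters' processing notes, CASAVA 1.8.2 and Bowtie2 2.1.0 were used with the sacCer3 build. The authors deposited one RPKM per ORF and library. How reads were counted, with which annotation, by strand or not, and what was done with reads that fit several places is not given in the sources used here. Symbols, exons and sequences came from RefSeq R64, the assembly of sacCer3, and all 81 members were found in it. The only annotated overlaps of members are with SNR39 and SNR59, in introns of RPL7A and RPL7B, and ORFs outside RefSeq were not checked for overlap.

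Folds are log2((RPKM + 1)/(RPKM + 1)) on the deposited values. A gene was called at 2-fold if either library compared reached an RPKM of 10. With 1 library per group no test was run. The text names genes by rule (the 10 highest and 10 lowest members by fold, the stalk genes, the extremes of level and of pair difference, and the largest folds of each further list), not all of which are printed. Members and lists were chosen with earlier results of these data known. Protein roles, gene neighbours and the example sequences were chosen with the values in view, and so were a few further genes named for their role. Upstream windows were cut from the R64 genome. Pairs were aligned with Biopython 1.88, and the rest was done with Python 3.11.15, pandas 2.3.3, numpy 2.4.6 and scipy 1.17.1. The fold procedure was tested on simulated data. Pseudocounts of 0.1 and 5, no minimum, a minimum RPKM of 30, other scalings and other treatments of the copies were tried.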

Additional observations from a re-analysis of the deposited data

Results flagged for a closer look

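The genotype fold of the large-subunit genes was near 0 in growing cells and above 0 in starved cells, with medians of -0.0708 and 1.43. For 55 of the 81 genes the fold was below 0 in growing and above 0 in starved cells, and for 26 it was above 0 in both. All 81 were above 0 in starved cells, so the 55 are simply the genes below 0 in growing cells. Of 5439 eligible ORFs, 2270 lay below 0 there. The members' count ran from 53 to 75 with other scalings. The growing values were small, none reaching 2-fold, and the difference between the conditions was not tested, since each group has 1 library.

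RPL22B lay on opposite sides of 0 after starvation, with a log2 fold of -1.10 with PHO23 present and 0.0892 without it. The latter is a change of 474 to 504 in RPKM. It turned below 0 with median-of-ratios scaling (-0.247), upper-quartile scaling (-0.0988) and scaling to equal sums without ribosomal protein genes (-0.110), and the difference was not tested.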

How the results depend on the processing

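Scaling moved the members' values most. With median-of-ratios scaling the median log2 folds were -3.03 for starvation in wild type, -1.34 for starvation in the mutant (79 genes at 2-fold), -0.165 for genotype in growing cells and 1.53 in starved cells, and the difference of starvation folds was 1.68. The summed RPKM values were then 292349, 265348, 35731.6 and 103252. Scaling to equal sums gave -2.17, -0.836 (16 genes), 1.29 for starved genotypes and a difference of 1.34, with sums of 223233, 217081, 49240.0 and 119942. Upper-quartile scaling gave -2.78, -1.19 (70 genes), -0.133 in growing cells and a difference of 1.59, with sums of 270059, 250564, 39138.2 and 108067. Equal sums without ribosomal protein genes gave -2.77, -1.20 (72 genes), 1.5 in starved cells and a difference of 1.57, with sums of 265630, 254853, 38751.0 and 109099. Under these scalings 79, 73, 78 and 78 members were called higher between starved genotypes, all 81 staying above 0. Among all eligible ORFs 373 of 5861, 256 of 6045, 335 of 5914 and 354 of 5911 were called higher there. For starvation in the mutant 926 of 5826, 365 of 5871, 753 of 5834 and 766 of 5843 eligible ORFs were called lower.

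The same scalings moved the median of all eligible ORFs for starvation in wild type from 0.533 to 0.00129, 0.851, 0.249 and 0.257, and for the mutant from 0.343 to 0.00213, 0.509, 0.152 and 0.142. For starved genotypes it went from -0.0417 to 0.0607, -0.185, -0.00446 and 0.0238. The share of higher calls among all calls went from 71.0% to 47.4%, 81.7%, 59.4% and 59.7% for starvation in wild type and from 71.8% to 47.5%, 81.3%, 57.5% and 56.8% in the mutant. It went from 65.5% to 51.3%, 67.0%, 55.3% and 62.6% for growing genotypes and from 56.2% to between 41.6% and 65.3% for starved ones.

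Adding up copies gave -2.56 for starvation in wild type and -0.0480 for growing genotypes, and single-copy genes alone -2.68, -1.08 in the mutant and -0.0405. Leaving out pairs sharing over 40% of their stretches, an alternative chosen after seeing the data, gave -2.55. A minimum RPKM of 30 left 195 ORFs called between growing genotypes, against 328. The causes were not tested. No paired analysis was possible because each group has 1 library and no test was run, and no replicate could be left out.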

Other observations

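Several large-subunit genes lie next to another cytosolic ribosomal protein gene in the R64 annotation. Among neighbouring protein-coding genes there were 9 such pairs, 5 of them divergent. RPL24A and RPL30, both large-subunit genes, are divergent on chromosome VII with 1156 bases between them, and their starved genotype log2 folds were 1.93 and 1.31. RPL39 and RPS22A are divergent on chromosome X, 630 bases apart, and stood at 1.41 and 2.08. RPL13A and RPP1A are convergent on chromosome IV, 413 bases apart, and stood at 1.59 and 0.93. RPL13A is also divergent from RPS16B (634 bases), which was at 1.65, and its copy RPL13B is divergent from RPS16A (720 bases), with 1.35 and 1.85. No test of neighbours was made.

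The chaperone and the protein it guards did not always stand alike. The Rpl5 gene was at 1.89, RPL11A and RPL11B at 1.46 and 1.38, and the gene of their carrier SYO1 at 1.29. RPL4A and RPL4B were at 0.64 and 0.66 and that of their chaperone ACL4 at 0.34. RPL23A and RPL23B were at 1.57 and 1.49 and BCP1 at 0.28. For RPL3 and RRB1 the values were 1.52 and 1.06, and for RPL10 and SQT1 they were 1.37 and 0.33. These are starved genotype log2 folds from the same libraries, given side by side.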
